A study of Mus musculus with 4 samples.

Results

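Tubulins, microtubule-associated proteins (MAPs), collapsin response mediator proteins (CRMPs) and neurofilament subunits build the cytoskeleton of growing neurons, and 46 such genes were chosen by name. Of these, 45 were found by gene symbol among the 20421 genes of the table, and Tuba8 was not analysed here. The material was total RNA of brain from embryonic day 15 (E15) C57BL/6 mice labelled FOXM1f/+;Nestin-Cre or WT. GEO lists 2 samples per genotype here, although the design text speaks of triplicates, and the table holds 1 column of read counts and 1 of counts scaled to a fixed library total (CPM) for each genotype. The columns are called the FOXM1f/+;Nestin-Cre library, or transgenic brain (17856653 reads) and the WT library, or WT brain (17543705 reads).

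FOXM1 is a transcription factor of dividing cells, the series' title names the human gene, and Nestin-Cre is a Cre recombinase driver active in neural progenitors and the cells they give rise to. The labels do not say how the f allele was built, and f/+ is the usual notation for a heterozygote. The titles of the WT samples name a nestin allele in 1 sample and a foxm1 allele in the other, so the WT library may carry either. Whether a single embryo or several contributed to a column is not given. Every difference below is between 2 libraries and has no replicate check. The 95% intervals are exact and cover counting error alone, with reads taken as independent molecules, since no molecular identifiers are named.

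The libraries stood apart in ways the genotype label does not give. Xist, which coats the silenced X in female cells, gave 9628 reads in the FOXM1f/+;Nestin-Cre library against 5 in the WT library. The Y-linked gene Eif2s3y gave 0 reads in the FOXM1f/+;Nestin-Cre library against 1266 in the WT library, so genotype and sex cannot be told apart. Mouse Foxm1 had 1289 reads in the FOXM1f/+;Nestin-Cre library and 1139 in the WT library, a ratio of 1.11 (1.03 to 1.21), and no value here measures the human gene. Summed over the 5 choroid plexus markers that averaged 1 CPM or more, the level was 24.2 CPM in the FOXM1f/+;Nestin-Cre library and 703 CPM in the WT library. For the 7 erythroid markers it was 735 CPM in the FOXM1f/+;Nestin-Cre library and 387 CPM in the WT library. The 4 meningeal, 5 microglia, 6 endothelial and pericyte, 5 oligodendrocyte precursor and 2 ciliated cell markers above the same minimum had median log2 ratios of -0.91, -0.48, -0.18, -0.42 and -1.22, and the 6 interneuron markers 0.03. Neuronal markers were high in both libraries: 8 postmitotic neuron markers summed to 2519 CPM in the FOXM1f/+;Nestin-Cre library and 2627 CPM in the WT library. The part of these differences in the results below was not tested.

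Microtubules are hollow filaments of alpha and beta tubulin pairs, and gamma tubulin seeds them at centrosomes and along other microtubules. Each tubulin family has several gene copies, called isotypes, which differ mostly in the acidic tail at the end of the protein. In newborn neurons, MAPs and doublecortin stabilise the microtubules of the leading process and axon, stathmins and end-binding proteins tune their growth, and CRMPs bind tubulin and act in the growth cone. Neurofilaments are the intermediate filaments of neurons, and their heavy subunit appears as axons mature.

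The 3 most abundant alpha isotypes lie in a cluster on chromosome 15 (GRCm38 coordinates of the table): Tuba1b at 98931425 to 98934565 and Tuba1a at 98949841 to 98953551 on the minus strand, and Tuba1c at 99029891 to 99038105 on the plus strand. Their coding sequences, from GENCODE release M21 transcripts, are so alike that read counts of single isotypes are uncertain. Over the whole coding sequence of Tuba1a and Tuba1b, 98.3% of aligned bases were identical, with an unbroken identical run of 281 bases. Tuba1b and Tuba1c shared 97.9%, with a run of 468 bases.

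Transcripts of the 2 highest alpha isotypes were more abundant in the FOXM1f/+;Nestin-Cre library. Tuba1a, the main alpha tubulin of embryonic neurons, had 158407 reads (8870 CPM) in the FOXM1f/+;Nestin-Cre library and 138282 reads (7881 CPM) in the WT library, 1.13-fold higher (1.12 to 1.13). Tuba1b, an isotype that dividing cells use as well, had 17208 reads (964 CPM) in the FOXM1f/+;Nestin-Cre library and 14247 reads (812 CPM) in the WT library, 1.19-fold higher (1.16 to 1.21). Tuba1c went the other way, with 2577 reads in the FOXM1f/+;Nestin-Cre library and 3005 in the WT library, lower by 1.19-fold (1.13 to 1.25). Tuba4a, an isotype of mature tissues, had 252 reads in transgenic brain and 248 in WT brain, and its interval spanned 1. Its span overlaps that of Stk16 on the opposite strand, with 1616 reads in transgenic brain and 1724 in WT brain, and the part of this overlap was not tested. All 4 alpha tubulin genes together held 0.999% of all reads in the FOXM1f/+;Nestin-Cre library and 0.888% in the WT library. In bulk tissue, a difference in the number of cells of a type and a difference in RNA per cell cannot be told apart.

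Some alpha tubulin pseudogenes differed in the opposite direction to Tuba1b. Pseudogenes at 5 loci carry the same deposited protein description as Tuba1b, alpha-1B chain. AC154767.3 on chromosome 13 had 307 reads in the FOXM1f/+;Nestin-Cre library and 1555 in the WT library, lower by 5.16-fold (4.56 to 5.85), and Gm14150 on chromosome 2 had 92 reads in transgenic brain and 925 in WT brain, 10.2-fold lower (8.25 to 12.8). The others did not share this size of difference: Gm17383 had 1324 reads in the FOXM1f/+;Nestin-Cre library and 1109 in the WT library, Gm3756 had 784 in transgenic brain and 675 in WT brain, and Gm5620 had 79 in transgenic brain and 90 in WT brain. Summed with these pseudogenes, Tuba1b had 19794 reads in the FOXM1f/+;Nestin-Cre library and 18601 in the WT library, a log2 ratio of 0.06 (0.03 to 0.09), where the gene alone gave 0.25 (0.21 to 0.28). CT571252.1 on chromosome 12, described as alpha-1A chain, had 3 reads in the FOXM1f/+;Nestin-Cre library and 503 in the WT library, a ratio of 171-fold lower with a counting interval of 58.1 to 830. Adding its reads to Tuba1a moved the log2 ratio of Tuba1a by little, to 0.17 (0.16 to 0.18). Gm6682 on chromosome 12, described as alpha-1C chain, had 26 reads in the FOXM1f/+;Nestin-Cre library and 92 in the WT library, and with it Tuba1c reached a log2 ratio of -0.28, where the gene alone gave -0.25.

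**Figure D1:**
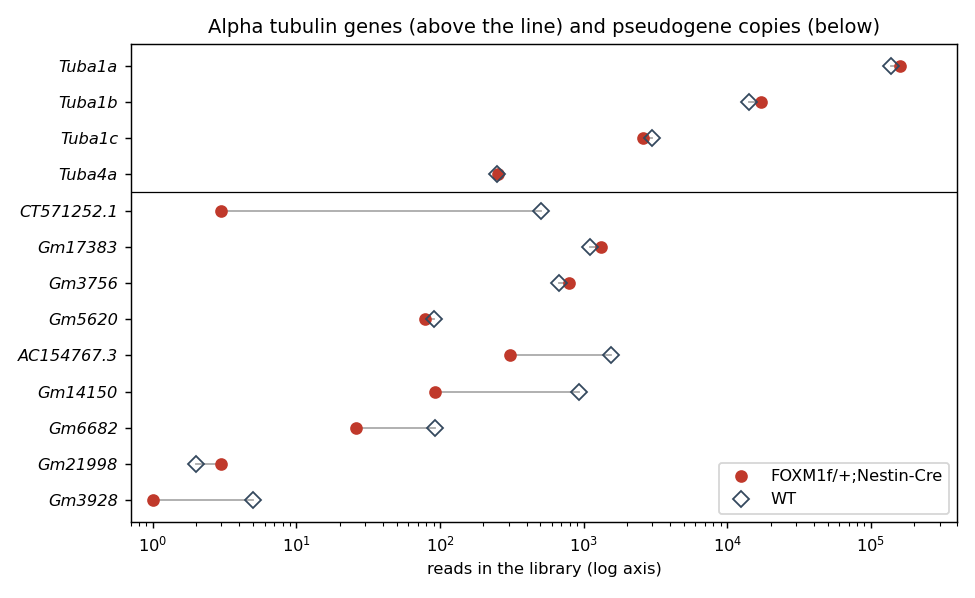
Reads of the 4 alpha tubulin genes and of 9 pseudogenes with the same deposited descriptions, on a log axis. Filled circles are the FOXM1f/+;Nestin-Cre library and open diamonds the WT library; CT571252.1, AC154767.3 and Gm14150 stand out by their distance, at 3, 307 and 92 reads in FOXM1f/+;Nestin-Cre against 503, 1555 and 925 in WT.

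The likeness between gene and copies can be read from coding bases 181 to 240 of Tuba1b. Among the windows of this length that were compared, which left out the coding end, AC154767.3 and Gm14150 together differed most from Tuba1b here. Sequences are from GENCODE release M21 and GRCm38, on the coding strand. Capitals mark bases that differ from Tuba1b, and a base that is missing leaves no letter.
Tuba1b: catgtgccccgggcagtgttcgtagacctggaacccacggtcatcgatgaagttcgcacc
Tuba1a: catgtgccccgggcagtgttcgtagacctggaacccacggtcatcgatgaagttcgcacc
Tuba1c: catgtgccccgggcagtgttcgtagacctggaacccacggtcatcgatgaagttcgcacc
Gm14150: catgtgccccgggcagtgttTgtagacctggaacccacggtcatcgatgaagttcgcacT
AC154767.3: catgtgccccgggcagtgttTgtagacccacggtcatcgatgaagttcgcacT
The 3 genes were identical here, Gm14150 differed in 2 alignment columns and AC154767.3 in 9. Over their best alignments to the Tuba1b coding sequence, AC154767.3 matched at 98.7% and Gm14150 at 98.6% of columns, and CT571252.1 matched Tuba1a at 96.1%. All 9 alpha tubulin pseudogenes together had 2619 reads in the FOXM1f/+;Nestin-Cre library and 4956 in the WT library, lower by 1.93-fold (1.84 to 2.02). With them added, the alpha tubulin total was 181063 reads in the FOXM1f/+;Nestin-Cre library and 160738 in the WT library, 1.11-fold higher (1.10 to 1.11). How multi-mapping reads were assigned is not given, and its part in these values was not tested. For 520 pseudogenes that averaged 1 CPM or more, the share 2-fold or more lower in the FOXM1f/+;Nestin-Cre library was 2.5%, and the share as much higher was 1.73%.

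Among beta tubulins, the isotypes that neurons favour were equal or lower in the FOXM1f/+;Nestin-Cre library. The coding ends of the 3 most abundant isotypes and of Tubb2a, the lowest of the family by ratio, place the isotypes side by side, with capitals marking bases that differ from Tubb2b or have no partner in it.
Tubb2b: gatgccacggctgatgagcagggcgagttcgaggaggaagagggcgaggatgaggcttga
Tubb2a: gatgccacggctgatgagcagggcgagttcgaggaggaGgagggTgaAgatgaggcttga
Tubb5: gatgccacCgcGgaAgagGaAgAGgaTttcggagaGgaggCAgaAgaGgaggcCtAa
Tubb3: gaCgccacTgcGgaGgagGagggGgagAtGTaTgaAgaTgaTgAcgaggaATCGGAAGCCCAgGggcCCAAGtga
Tubb2a differed from Tubb2b in 3 columns, Tubb5 in 18 and Tubb3 in 32. Tubb2a and Tubb2b lie 48740 bases apart on chromosome 13 and share 96.5% of coding bases, with an identical run of 551 bases, so their reads can be split between them in counting.

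Tubb2a had 8515 reads (477 CPM) in the FOXM1f/+;Nestin-Cre library and 10689 (609 CPM) in the WT library, lower by 1.28-fold (1.24 to 1.31). Tubb2b, which migrating cortical neurons need, had 66744 reads in the FOXM1f/+;Nestin-Cre library and 71817 in the WT library, lower by 1.10-fold (1.08 to 1.11). Tubb4a, a brain isotype, had 4822 reads in transgenic brain and 5469 in WT brain and a log2 ratio of -0.21 (-0.26 to -0.15). Tubb3, the isotype used as a marker of neurons, was nearly level between the libraries, with 51844 reads in the FOXM1f/+;Nestin-Cre library and 51704 in the WT library, a log2 ratio of -0.02 that became 0.00 under RLE scaling, which sets the libraries level at the median gene. Tubb5, which progenitors and neurons both use, had 93154 reads in transgenic brain and 89845 in WT brain and a log2 ratio of 0.03 (0.01 to 0.04). Tubb4b, with 4694 reads in transgenic brain and 4533 in WT brain, and Tubb6, with 170 in transgenic brain and 160 in WT brain, had intervals that spanned 1.

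To compare isotypes with each other, CPM were divided by the exon length of each gene. On this scale the alpha pool was almost a single gene: Tuba1a made up 89.4% of it in the FOXM1f/+;Nestin-Cre library and 89.5% in the WT library. Tuba1b held 9.34% of the alpha pool in the FOXM1f/+;Nestin-Cre library and 8.87% in the WT library. After length scaling, the beta pool was shared by 3 isotypes of about equal size. Tubb2b held 30.8% of it in the FOXM1f/+;Nestin-Cre library and 32.2% in the WT library, Tubb5 held 29.6% in transgenic brain and 27.7% in WT brain, and Tubb3 held 29.3% in transgenic brain and 28.4% in WT brain. Tubb2a held 5.59% in transgenic brain and 6.82% in WT brain. Tubb5 thus followed Tubb2b in the FOXM1f/+;Nestin-Cre library, whereas Tubb3 did so in the WT library, and Tubb5 and Tubb3 lay less than 1 point apart in both. This order rests on the length scaling. By reads alone, Tubb5 came first, with 40.5% of beta reads in transgenic brain and 38.4% in WT brain. Tubb2b then held 29.0% in transgenic brain and 30.7% in WT brain, and Tubb3 22.5% in transgenic brain and 22.1% in WT brain.

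**Figure D2:**
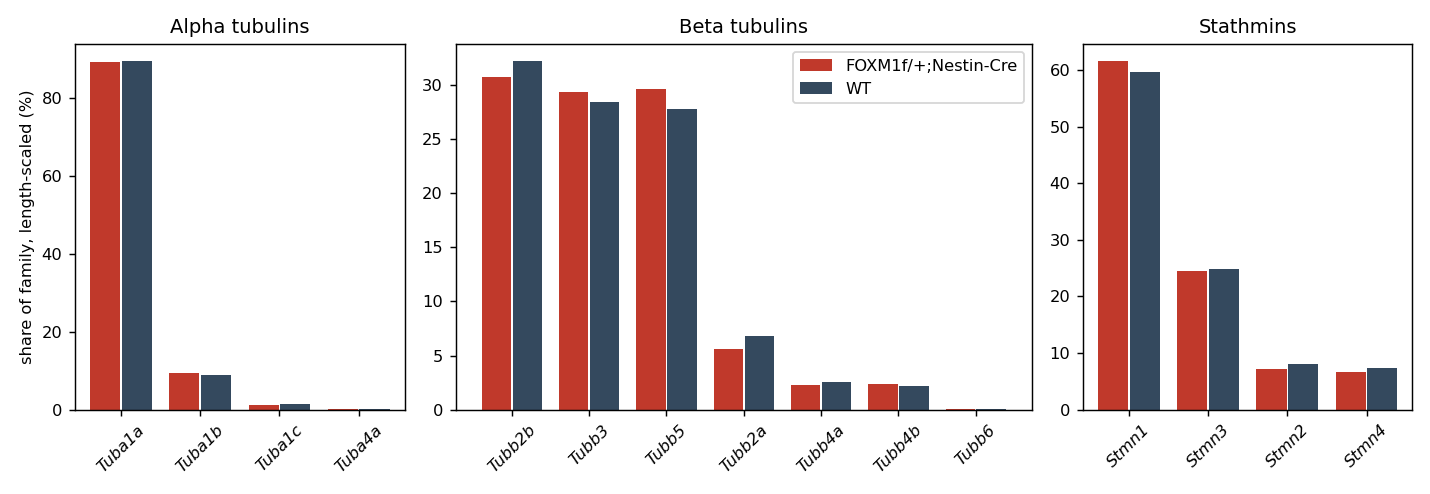
Length-scaled share (percent) of each isotype within the alpha tubulins, the beta tubulins and the stathmins, with FOXM1f/+;Nestin-Cre bars left of WT bars, 1 library each. Tuba1a fills 89.4% of the alpha pool in FOXM1f/+;Nestin-Cre and 89.5% in WT, while Tubb2b, Tubb5 and Tubb3 each hold between 27.7% and 32.2% of the beta pool.

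The gamma tubulins, neighbours 29487 bases apart on chromosome 11, differed in opposite directions. Tubg1, the gamma tubulin of dividing cells, had 1870 reads in the FOXM1f/+;Nestin-Cre library and 1614 in the WT library, 1.14-fold higher (1.06 to 1.22). Tubg2, the copy enriched in brain, had 430 reads in the FOXM1f/+;Nestin-Cre library and 511 in the WT library, lower by 1.21-fold (1.06 to 1.38). Their coding sequences share 93.3% of bases, so both counts carry the same doubt as those of the other paralogs.

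Of 7 structural MAPs, 6 had intervals below 1 and none above, where 19.2% of all genes averaging 1 CPM or more had intervals below 1 and 16.5% above. Among genes at 100 CPM or more, as Map1b, Map2, Map4, Map6 and Mapt were, the shares were 30.5% below and 29.0% above. Tau (Mapt), which binds along axonal microtubules, had 14772 reads in the FOXM1f/+;Nestin-Cre library and 18290 in the WT library, lower by 1.26-fold (1.23 to 1.29). Map6, which makes microtubules stable to cold, had 2645 reads in transgenic brain and 2907 in WT brain and was 1.12-fold lower (1.06 to 1.18). Map1a, a MAP of mature neurons, had 1374 reads in transgenic brain and 1500 in WT brain and a log2 ratio of -0.15 (-0.26 to -0.05). Map4, the broadly expressed relative of tau, had 4778 reads in transgenic brain and 5156 in WT brain and was 1.10-fold lower (1.06 to 1.14). The dendritic Map2 was closer to equal, with 13440 reads in the FOXM1f/+;Nestin-Cre library and 13851 in the WT library, a log2 ratio of -0.07 (-0.10 to -0.03). Map1b, the early MAP of growing axons, had 26071 reads in transgenic brain and 25479 in WT brain, and its interval spanned 1. Map7, a partner of kinesin-1, had only 67 reads in the FOXM1f/+;Nestin-Cre library and 116 in the WT library, lower by 1.76-fold (1.29 to 2.42).

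The doublecortin family had nearly the same ratio in all 3 genes. Dcx, the X-linked gene of migrating neurons, had 14806 reads in the FOXM1f/+;Nestin-Cre library and 15884 in the WT library, a log2 ratio of -0.13 (-0.16 to -0.09). Dclk1, with 4906 reads in transgenic brain and 5251 in WT brain, had -0.12 (-0.18 to -0.07). Dclk2, with 6257 reads in transgenic brain and 6663 in WT brain, had -0.12 (-0.17 to -0.07). Among its partners in nuclear movement, Pafah1b1, which encodes the dynein regulator Lis1, had 4976 reads in the FOXM1f/+;Nestin-Cre library and 4678 in the WT library, a log2 ratio of 0.06 (0.01 to 0.12). Ndel1, which ties Lis1 to dynein, had 1099 reads in transgenic brain and 1162 in WT brain with an interval that spanned 1. Dcx is the only member on the X chromosome, and the part of sex in its value was not tested.

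The stathmins bind free tubulin dimers and promote shortening of microtubules. Stmn1, which dividing cells and neurons share, had 41482 reads in the FOXM1f/+;Nestin-Cre library and 40128 in the WT library, a log2 ratio of 0.02 (0.003 to 0.04). Its pseudogene Gm11223 had 757 reads in transgenic brain and 861 in WT brain. Summed with Gm11223, Stmn1 had a log2 ratio of 0.02 (-0.002 to 0.04), an interval that spanned a ratio of 1. The neuronal Stmn2 had 14247 reads in the FOXM1f/+;Nestin-Cre library and 15667 in the WT library, lower by 1.12-fold (1.09 to 1.15), and Stmn4 had 4532 reads in transgenic brain and 4938 in WT brain, 1.11-fold lower (1.06 to 1.15). Stmn3 was closer to equal, with 9773 reads in transgenic brain and 9904 in WT brain and a log2 ratio of -0.04. The length-scaled share of Stmn1 in the family was 61.5% in the FOXM1f/+;Nestin-Cre library and 59.7% in the WT library. Of the end-binding proteins, which track growing plus ends, the widely expressed Mapre1 had 6167 reads in transgenic brain and 5861 in WT brain with an interval spanning 1. Mapre2, with 4129 reads in transgenic brain and 4362 in WT brain, and the neuronal Mapre3, with 2130 reads in transgenic brain and 2261 in WT brain, were both 1.08-fold lower (1.03 to 1.12 and 1.02 to 1.15).

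Among CRMPs, which carry semaphorin signals to the growth cone, 3 of 5 had intervals below 1 and 1 above. All 5 exceeded 100 CPM, and at that level 30.5% of genes had intervals below 1 and 29.0% above. Crmp1 had 22977 reads in the FOXM1f/+;Nestin-Cre library and 25766 in the WT library, lower by 1.14-fold (1.12 to 1.16). Dpysl5, with 15049 reads in transgenic brain and 16480 in WT brain, was 1.11-fold lower (1.09 to 1.14). Dpysl3, with 28909 reads in transgenic brain and 31325 in WT brain, was 1.10-fold lower (1.09 to 1.12). Dpysl2, which promotes axon formation, was the exception, with 9720 reads in the FOXM1f/+;Nestin-Cre library and 9085 in the WT library, 1.05-fold higher (1.02 to 1.08). Dpysl4 had 3064 reads in transgenic brain and 3161 in WT brain, with an interval that spanned 1. Gap43, a protein of growth cones, had 8480 reads in the FOXM1f/+;Nestin-Cre library and 9224 in the WT library, lower by 1.11-fold (1.07 to 1.14). Of the CAMSAPs, which cap microtubule minus ends, Camsap3 had 1355 reads in transgenic brain and 1647 in WT brain and was 1.24-fold lower (1.15 to 1.33). Its span overlaps that of Xab2 on the opposite strand, which had 1448 reads in transgenic brain and 1536 in WT brain. The strand setting of the counting is not given, and the part of this overlap was not tested. The same holds for Crmp1 and Evc, which had 376 reads in transgenic brain and 309 in WT brain. It also holds for Map1a and Ppip5k1 (275 in transgenic brain, 323 in WT brain) and Ina and Nt5c2 (995 in transgenic brain, 992 in WT brain). Fam166a, opposite Tubb4b, had 6 reads in transgenic brain and 0 in WT brain. Camsap1 had 3151 reads in transgenic brain and 3304 in WT brain and was 1.07-fold lower (1.02 to 1.12), whereas the interval of Camsap2, with 2030 reads in transgenic brain and 1922 in WT brain, spanned 1.

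Alpha-internexin dominated the neurofilament subunits in both libraries. Ina, which encodes this subunit of young neurons, made up 90.2% of the length-scaled pool in the FOXM1f/+;Nestin-Cre library and 88.8% in the WT library, and its reads were nearly level, 8897 in transgenic brain and 8689 in WT brain. Nefl, the light subunit, had 497 reads in the FOXM1f/+;Nestin-Cre library and 485 in the WT library, and the intervals of both genes spanned 1. Nefm, the medium subunit, had 857 reads in the FOXM1f/+;Nestin-Cre library and 1065 in the WT library, lower by 1.26-fold (1.15 to 1.39). Nefh, the heavy subunit, had 16 reads in transgenic brain and 37 in WT brain, 2.35-fold lower (1.28 to 4.53), so its size is poorly fixed. In the table the interval of Nefm on the minus strand encloses Nefl on the plus strand. Whether their exons overlap was not checked, and without a stated strand setting reads from any shared stretch cannot be told apart. Markers of peripheral and cranial nerve neurons, which are rich in neurofilaments, were low: 4 of 8 averaged 1 CPM or more, summing to 54.3 CPM in the FOXM1f/+;Nestin-Cre library and 56.2 CPM in the WT library. Isl1 made up most of that sum, with 48.9 CPM in transgenic brain and 51.3 CPM in WT brain. Prph, which encodes peripherin, another neuronal intermediate filament, had 49 reads in transgenic brain and 28 in WT brain, 1.72-fold higher (1.06 to 2.84). Both genes were named after their values were seen.

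**Figure D3:**
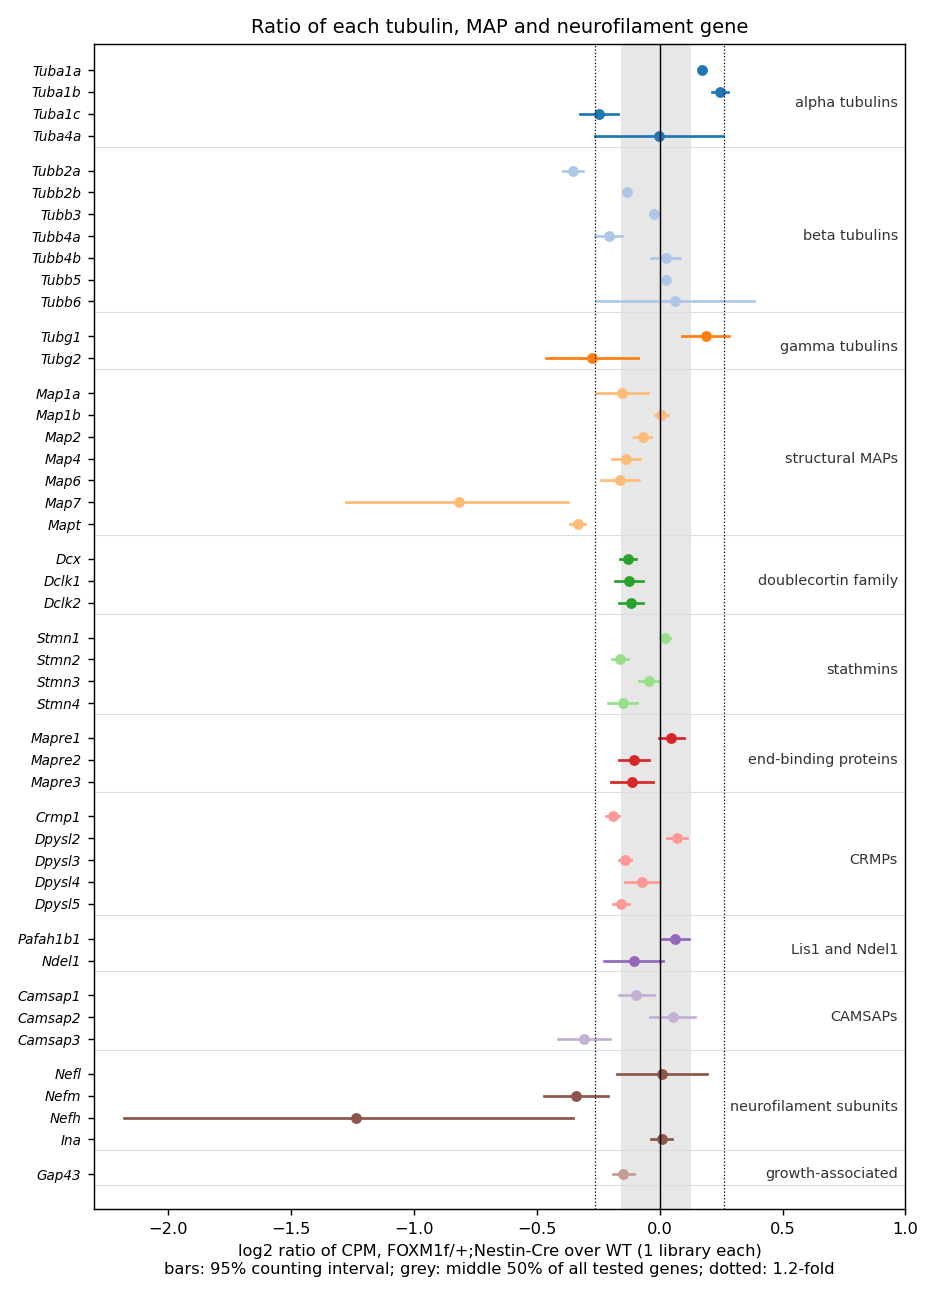
Log2 ratio of CPM, FOXM1f/+;Nestin-Cre over WT, for the 45 genes by role, with 95% counting intervals as bars. Grey marks the middle 50% of all tested genes and dotted lines a 1.2-fold ratio; most points lie left of 0, with Nefh at -1.23 and Map7 at -0.82 farthest out and Tuba1b at 0.25 farthest right.

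All 45 genes averaged 1 CPM or more, the minimum used for comparisons over the table, which 14557 genes passed. The members' median log2 ratio was -0.11, beside -0.01 for all genes tested, and 31 of 45 had ratios below 1, as did 51.6% of all genes tested. A counting interval wholly below 1 was found for 28 members, where 19.2% of all tested genes had one, and wholly above 1 for 7 members, where 16.5% of all tested genes had one. Among the 28 were Tubb3 and Stmn3, whose intervals both ended at a log2 ratio of -0.004, just below equality. Such counts grow with depth: at 100 CPM or more, intervals lay below 1 for 22 of 34 members and 30.5% of genes, and above 1 for 6 members and 29.0% of genes. At a ratio of at least 1.2-fold, 7 members were lower, Nefh, Map7, Tubb2a, Nefm, Mapt, Camsap3 and Tubg2, 15.6% of members beside 15.7% of all genes tested. None was at least 1.2-fold higher, where 11.5% of genes were. At 100 CPM or more, 2 of 34 members were at least 1.2-fold lower, where 4.24% of genes were, and none higher, where 2.12% of genes were. At 1.5-fold, 2 members were lower, where 5.23% of genes were, and none higher, where 2.53% of genes were. At 2-fold, 1 member was lower, where 1.83% of genes were, and none higher, where 0.522% of genes were. Tubg2, at 1.21-fold lower, lay just inside the 1.2-fold limit and Tuba1c, at 1.19-fold lower, just outside it, until the reads of Gm6682 were added. On the other side, Tuba1b, at 1.19-fold higher, lay just outside and passed the limit under RLE scaling. In the authors' deposited table, Map7 and Nefh were the members marked as significant, 4.44% of members beside 9.46% of all genes. Both had few reads, and their ratios lay farthest from 1 among the members. Tuba1a, Mapt and Tubb2a had smaller deposited adjusted p-values than both and were not marked. The mark thus did not follow the p-value alone, and its count is not a count of members that passed the authors' test.

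Of the 4 members with the most reads, Tuba1a, Tubb5 and Tubb3 lay above the members' median and Tubb2b below it, and the total over members was almost equal. The 45 genes took 3.88% of all reads in the FOXM1f/+;Nestin-Cre library and 3.92% in the WT library, and the log2 ratio of their summed CPM was -0.015. The median of the 10 members that dividing cells also use (Tuba1b, Tuba1c, Tubb4b, Tubb5, Tubb6, Tubg1, Map4, Map7, Stmn1 and Mapre1) was 0.03, with 4 intervals above 1 and 3 below. The other 35 members had a median of -0.12, with 3 intervals above 1 and 25 below. Of all genes tested, 16.5% had intervals above 1 and 19.2% below, and at 100 CPM or more 29.0% above and 30.5% below. In the same libraries the 7 markers of dividing cells all had intervals above 1 and a median of 0.39, and the 8 radial glia markers a median of 0.22. The 8 postmitotic neuron markers had a median of -0.08, with 5 intervals below 1 and 1 above. The part of these markers in the members' ratios was not tested.

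**Figure D4:**
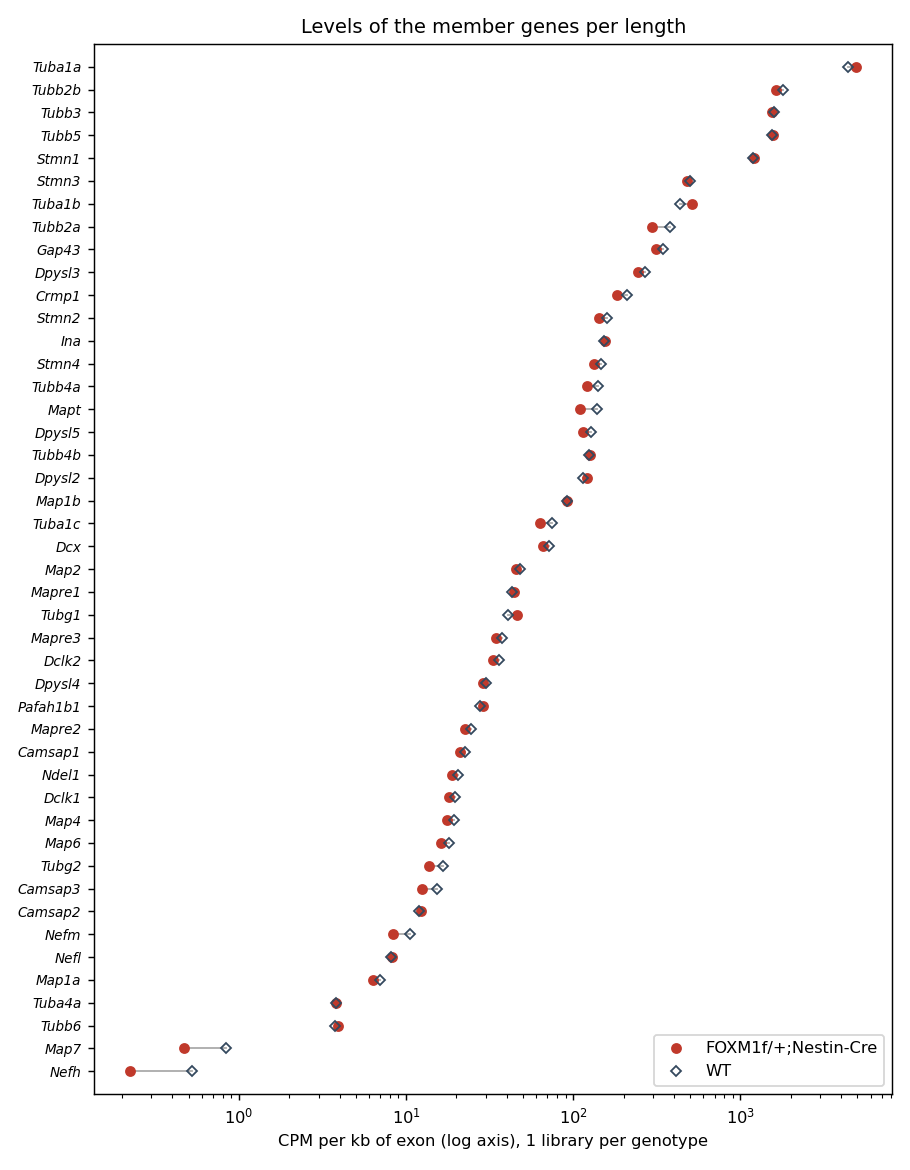
CPM per kb of exon on a log axis for the 45 genes, ordered by the WT library, with filled circles for the FOXM1f/+;Nestin-Cre library and open diamonds for the WT library. Levels run from 0.224 for Nefh to 4919 for Tuba1a in FOXM1f/+;Nestin-Cre and from 0.528 to 4371 for the same genes in WT, and the distance between the symbols is small beside this range.

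The order of levels per length was almost the same in both libraries. Tuba1a, at 4919 CPM per kb of exon in the FOXM1f/+;Nestin-Cre library and 4371 in the WT library, stood at the top. Below it in the FOXM1f/+;Nestin-Cre library came Tubb2b at 1629, Tubb5 at 1568, Tubb3 at 1554 and Stmn1 at 1208. In the WT library Tubb2b came at 1784, Tubb3 at 1577, Tubb5 at 1539 and Stmn1 at 1190. At the low end stood Map7, at 0.473 in transgenic brain and 0.833 in WT brain, and Nefh, at 0.224 in transgenic brain and 0.528 in WT brain. In the gene ontology terms of the table, 26 of the 45 members were annotated to the microtubule and 11 to the axon, a description only, since members were chosen by such roles. The range of levels across members was far wider than the difference of any member between the libraries.

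Other genes of the microtubule system, in 9 lists, were set beside the members. The shares to read their interval counts against are those of all genes tested, 16.5% above 1 and 19.2% below. For genes at 100 CPM or more they are 29.0% above and 30.5% below. Tubulin folding and biogenesis genes had a median log2 ratio of 0.07, with 11 of 21 intervals above 1 and none below. In that list Pfdn4, a prefoldin subunit, had 719 reads in the FOXM1f/+;Nestin-Cre library and 567 in the WT library, and Tbca, a tubulin cofactor, had 1868 in transgenic brain and 1518 in WT brain. Tubulin modification enzymes lay on the other side, with a median of -0.09 and 9 of 20 intervals below 1 and none above. Plus-end binding genes had a median of -0.09, with 11 of 19 intervals below 1 and 3 above. Ttll3, a tubulin glycylase of the modification list, was 1.34-fold lower (1.13 to 1.59). Nav2, a neuron navigator, was 1.34-fold lower (1.23 to 1.47), whereas Tacc3, which acts at the mitotic spindle, was 1.25-fold higher (1.16 to 1.35).

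The nucleation list had a median of 0.07, with 4 of 21 intervals above 1 and 2 below, and Nedd1, which brings gamma tubulin to the spindle, was 1.36-fold higher (1.15 to 1.60). Other MAPs were mixed, with 8 of 32 intervals above 1 and 12 below. Map1lc3a, an autophagy protein related to the light chains of MAPs, was 1.53-fold lower (1.44 to 1.62), and Ckap2, a spindle protein, had a log2 ratio of 0.41 (0.27 to 0.56). The dynein and Lis1 pathway was near balance, with 7 of 23 intervals above 1 and 6 below. It held Cdk5r2, a neuronal activator of the kinase Cdk5, at 1.58-fold lower (1.44 to 1.74), Dync1i1, a dynein chain of neurons, at 1.49-fold lower (1.36 to 1.62), and Nde1, the relative of Ndel1 in dividing progenitors, at a log2 ratio of 0.37 (0.26 to 0.48). Its paralog Ndel1 stood at -0.11.

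Among the remaining lists, microtubule severing genes had a median of 0.09, with 3 of 8 intervals above 1 and 1 below. Other intermediate filaments had a median of 0.03, with 4 of 8 intervals above 1 and 3 below. In that list Vim had 14163 reads in the FOXM1f/+;Nestin-Cre library and 10521 in the WT library, 1.32-fold higher (1.29 to 1.36). Nes was 1.23-fold higher (1.19 to 1.28), whereas Lmna was 1.22-fold lower (1.04 to 1.43). Vim and Nes also belong to the radial glia markers. The growth-associated list had a median of -0.08, with 3 of 10 intervals above 1 and 6 below. Its Basp1, a membrane protein of growth cones like Gap43, had 18950 reads in the FOXM1f/+;Nestin-Cre library and 23377 in the WT library, lower by 1.26-fold (1.23 to 1.28).

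**Figure D5:**
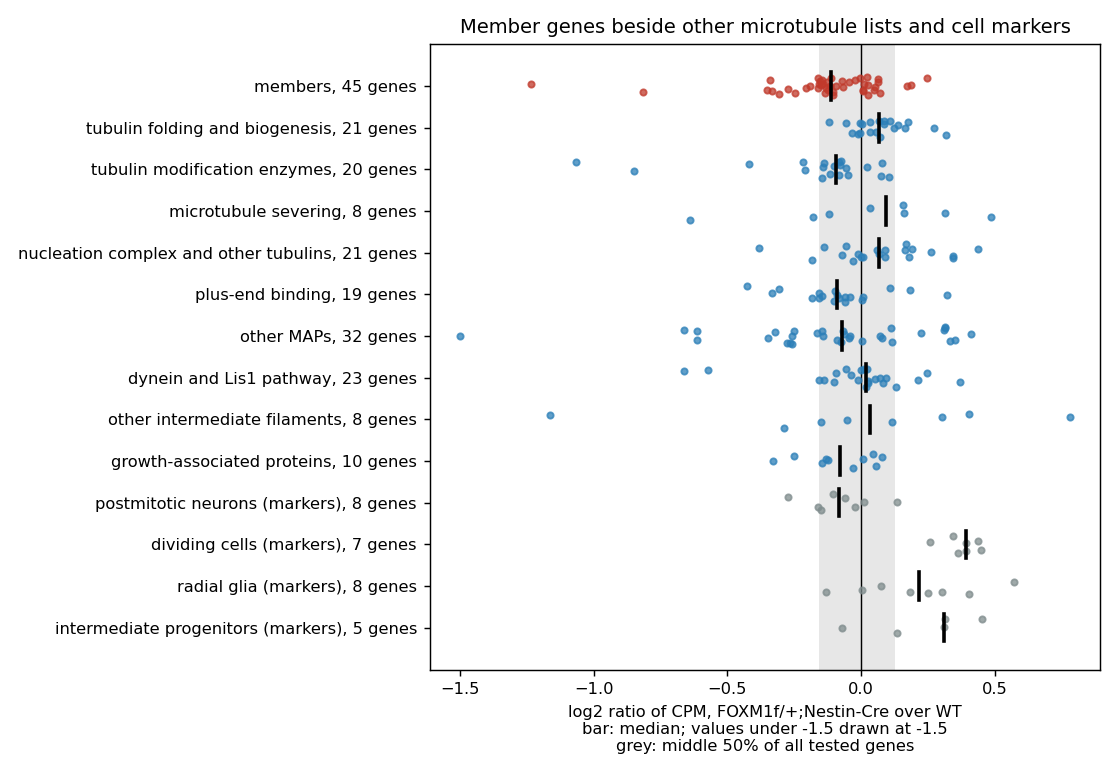
Log2 ratio of CPM, FOXM1f/+;Nestin-Cre over WT, of each tested gene in the member set, in 9 lists of other microtubule and filament genes and in 4 marker lists, with the median of each as a bar. The members' median lies at -0.11, tubulin folding genes at 0.07 and dividing cell markers at 0.39.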

How the data were processed

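Per the submitters' processing notes, the tools were TopHat2 2.0.12, Bowtie2 2.2.3 and HTSeq 0.6.0, with mm9 as the build. The strand setting, annotation and multi-mapping rule are not given here. The deposited table holds a count column and a normalized column for each genotype, per the file headers. The normalized values are the counts times a constant per column and are called CPM here. Genes without reads were entered there at a small value. The authors' fold (ratio) and log2 columns compare the CPM columns, and the test behind the deposited p-values is not given. Coordinates match GRCm38: of 20388 identifiers found in GENCODE M21, 91.7% had the same start and end. Columns were matched to a genotype and to no sample, so the planned edgeR test was not run.

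Ratios used the authors' CPM, with genes without reads set back to no reads, and exact conditional (Clopper-Pearson) intervals. The lists and members were chosen with earlier results of these data known. All members could be named. From each other list up to 3 genes that averaged 10 CPM or more, differed at least 1.2-fold and had an interval off 1 could be named, by size. Exon lengths and coding sequences came from GENCODE M21, aligned with Biopython 1.88, and pseudogenes were matched by their deposited UniProt description. Alternatives were TMM and RLE scaling (edgeR 4.0.16, R 4.3.3), other expression minimums and folds, leaving out paralogs, and adding pseudogene reads. Python 3.11.15, NumPy 2.4.6, pandas 2.3.3, SciPy 1.17.1 and Matplotlib 3.10.9 were used.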

Additional observations from a re-analysis of the deposited data

How the results depend on the processing

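The count of 7 members at least 1.2-fold lower became 2 at 1.5-fold, 1 at 2-fold and 28 by counting interval alone. The count of 0 members at least 1.2-fold higher became 1 (Tuba1b) under RLE scaling and 7 by counting interval alone. The interval counts used the authors' CPM and were not recomputed under TMM or RLE scaling, so members with an interval close to 1 may not keep their side. The members' median log2 ratio of -0.11 was -0.015 when counts were summed instead, and lay between -0.11 and -0.09 under the other alternatives. TMM and RLE scaling shifted all log2 ratios by 0.02 and 0.03, taking the doublecortin family median of -0.12 to -0.11 and -0.10. TMM changed the sign of 1 member (Tuba4a) and RLE of 2 members (Tuba4a and Tubb3). Some other medians over few genes changed sign. That of neurofilament subunits went from -0.17 to 0.01 at a mean of 10 CPM or at 1 CPM in both libraries. Without near-identical paralogs, alpha tubulins, then Tuba4a alone, went from 0.08 to -0.002, and beta tubulins from -0.02 to 0.02. Adding pseudogene reads, an alternative chosen after seeing the data, took the log2 ratio of Tuba1b to 0.06, below its counting interval, and the count at least 1.2-fold lower to 8. The difference in the length-scaled share of Tubb5, 1.84 percentage points, was 2.15 without length scaling. Without it, Tubb5 and no longer Tubb2b held the largest share of the beta pool in both libraries. No other alternative moved a count by more than 1.5 times. None turned a called direction round, but none could have done so. The scaling shifts were smaller than a 1.2-fold ratio, and no called member had pseudogene reads added. Other minimums, other folds and leaving out paralogs keep each single ratio as it was. No replicate could be left out with 1 column per genotype. No paired analysis was possible because there is 1 column per genotype, headed F1 and C2, and these numbers match no second column. Depth limits Nefh and Map7, whose intervals are wide.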
